A study of Mus musculus with 8 samples.

Results

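Keratins are the intermediate filament proteins of epithelia, and 8 of their genes, all found among the 54532 gene rows of the count table, are described here: Krt5, Krt12, Krt6a, Krt14 and Krt15 of stratified and corneal epithelium, and Krt8, Krt18 and Krt19 of simple epithelium. They were taken by gene symbol, and the choice was made with the results of the ASC against sham comparison known. Their levels, fold changes and calls in that comparison are therefore given as a description and support no test. The question was whether the corneal keratins rose together with those of simple epithelium or apart from them.

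RNA was measured in lens capsules of C57BL/6 mice of WT genotype, aged 6 to 8 weeks. The 4 ASC libraries (the injury-induced fibrotic cataract model of the labels) came from eyes in which a 26-gauge needle was passed through the cornea to cut the anterior lens capsule. The 4 sham libraries came from eyes with an incision of the cornea alone, so that the cornea was wounded in both groups. All capsules were taken 7 days after surgery as biological replicates, and the labels do not state the number of mice behind each library.

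A keratin filament is built from pairs of an acidic type I and a basic type II keratin, and the pair in use marks the kind of epithelium. Krt5 (type II) pairs with Krt14 (type I) in basal cells of stratified epithelia. In the mouse it also accompanies Krt12 (type I), the keratin of differentiated corneal epithelium. Krt8 (type II) with Krt18 or Krt19 (both type I) forms the filaments of simple epithelia, among them the retinal pigment epithelium. Lens cells build their intermediate filaments mainly from vimentin (Vim) and the beaded filament proteins Bfsp1 and Bfsp2.

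RefSeq promoter windows, 250 bases before to 50 bases after the annotated start on build GRCm38.p6, were found for 5 of the 8 genes. Those of Krt12 (chr11:99422210-99422509, minus strand), Krt5 (chr15:101712856-101713155, minus strand), Krt8 (chr15:102004293-102004592, minus strand) and Krt18 (chr15:102027966-102028265, plus strand) are shown as a type I and a type II keratin of each class. Each runs 5′ to 3′ with the gene, and capitals mark matches to the motifs searched.
Krt12: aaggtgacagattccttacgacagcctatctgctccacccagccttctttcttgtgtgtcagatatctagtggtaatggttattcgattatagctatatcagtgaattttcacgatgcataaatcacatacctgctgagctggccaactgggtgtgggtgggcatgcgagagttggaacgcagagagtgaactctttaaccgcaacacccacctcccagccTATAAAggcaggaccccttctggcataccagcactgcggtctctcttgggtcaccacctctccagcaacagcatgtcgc
Krt5: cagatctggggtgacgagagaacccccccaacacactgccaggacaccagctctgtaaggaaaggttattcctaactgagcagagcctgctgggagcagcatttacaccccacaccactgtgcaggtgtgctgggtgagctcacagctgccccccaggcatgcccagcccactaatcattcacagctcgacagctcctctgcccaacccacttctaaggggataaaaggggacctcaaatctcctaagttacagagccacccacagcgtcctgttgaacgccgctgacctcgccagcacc
Krt8: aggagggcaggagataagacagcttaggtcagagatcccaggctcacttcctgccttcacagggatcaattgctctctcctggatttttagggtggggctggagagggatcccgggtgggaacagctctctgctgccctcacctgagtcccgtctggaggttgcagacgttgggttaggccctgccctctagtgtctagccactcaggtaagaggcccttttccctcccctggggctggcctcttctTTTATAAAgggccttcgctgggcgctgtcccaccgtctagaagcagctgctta
Krt18: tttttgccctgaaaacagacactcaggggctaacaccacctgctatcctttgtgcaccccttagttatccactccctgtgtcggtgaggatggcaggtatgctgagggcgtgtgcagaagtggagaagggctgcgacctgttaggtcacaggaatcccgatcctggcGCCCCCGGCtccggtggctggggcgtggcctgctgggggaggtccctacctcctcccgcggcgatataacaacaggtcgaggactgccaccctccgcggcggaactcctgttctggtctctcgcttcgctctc
Each motif was searched on both strands. The TATA box was searched as TATAAA. The AP-1 motif was searched as TGANTCA. The GC box was searched as GGGCGG, and the AP-2 motif as GCCNNNGGC. The Krt12 window held a TATA box match with its first base at -29 from the start. The Krt8 window held it on both strands, overlapping, at -3 and -1, directly at the annotated start. The TATA box letters were found in 13.6% of all 32851 promoter windows. The Krt18 window held 1 match to the AP-2 motif, at -83, a motif found in 16.6% of windows. The letters of the AP-1 motif (7.8% of windows) and the GC box (35.7%) did not occur in any of the 5 windows.

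Library totals lay between 14420494 and 21141582 counts. The defining lens genes were abundant in both groups: Cryaa averaged 152491 CPM (read counts divided by library size after TMM scaling) in ASC and 143845 CPM in sham, and the lens epithelial factor Foxe3 335 CPM in ASC and 329 CPM in sham. Of all 15857 genes tested with edgeR's quasi-likelihood test, 162 passed an adjusted p of 0.05, 1.02% of those tested, and 0.631% rose in ASC.

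The keratins were minor transcripts of the capsule beside Vim, which averaged 3458 CPM in ASC and 3100 CPM in sham. Per kilobase of exon, Krt19 had the highest mean level of the 8, 34.7 ± 14.8 CPM per kb in ASC and 33.4 ± 5.73 in sham (SD, n = 4 each here and below). Krt18 followed with 12.4 ± 6.19 CPM per kb in ASC and 5.10 ± 1.73 in sham. In ASC the next mean levels were those of Krt5 (4.57 ± 2.73 CPM per kb), Krt15 (3.89 ± 1.71), Krt8 (3.38 ± 2.41) and Krt12 (2.30 ± 0.813). Krt5 and Krt15, and likewise Krt15 and Krt8, differed by less than the SD of either, whereas Krt12 lay below Krt8 by more than its own SD and less than that of Krt8. Krt6a (0.673 ± 0.198) and Krt14 (0.353 ± 0.350) were lowest in ASC. In sham the mean levels per kb of Krt15 (2.63 ± 0.646) and Krt8 (1.02 ± 0.532) stood above those of Krt5 (0.383 ± 0.273) and Krt12 (0.235 ± 0.228).

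Of the 8 genes, 7 had enough counts to be tested, Krt14 being left out by the low-count filter, and 3 of them (Krt5, Krt12 and Krt6a) were among the genes called higher in ASC, against 0.631% of all tested genes called higher. None was called lower, against 0.391% of all tested genes. The 4 ASC libraries lay above all 4 sham libraries for 4 of the 8 genes, Krt18 being the fourth, and for 3.39% of all genes tested. None of the 8 lay below all sham libraries in every ASC library, as 5.67% of all genes did. Since the members were chosen on this comparison, nothing is read from these shares. All 3 were also called without ASC 2 and without sham 1. None of the members was called without sham 2, without sham 3, or without any 1 of ASC 1, ASC 3 and ASC 4. Krt12 alone was called without sham 4. DESeq2 called 5, adding Krt8 and Krt18, against 2.12% of all genes it called higher.

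Krt5 (ENSMUSG00000061527) had the largest fold change of the 7. Its level was 13.3, 4.02, 6.07 and 16.7 CPM in ASC 1 to 4, against 1.73, 0.654, 0.533 and 0.447 CPM in sham 1 to 4. Every ASC library lay above every sham library, and ASC 1 and ASC 4 were high within ASC. The log2 fold change was 3.52 (SE 0.60). Between 74 and 248 reads per library carried this level in ASC and between 6 and 37 in sham.

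Krt12 (ENSMUSG00000020912), the cornea-specific partner, was at 6.31, 2.93, 4.45 and 3.38 CPM in ASC 1 to 4, against 0.983, 0.514, 0.242 and 0 CPM in sham 1 to 4. The groups did not overlap, and the sham library with no read was sham 4, the shallowest of all 8. The log2 fold change was 3.19 (SE 0.61), from 50 to 99 reads per ASC library and 0 to 21 per sham library. On the opposite strand the gene A830036E02Rik covers 54.37% of the exon bases of Krt12 in GENCODE mouse release 21. It had 1, 6, 3 and 3 reads in ASC 1 to 4 and 0, 1, 1 and 0 in sham 1 to 4. Whether reads were assigned by strand is not given, so the Krt12 count over that stretch is uncertain. The level of Krt12 per kilobase, taken over all its exon bases, shares this limit.

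Krt6a (ENSMUSG00000058354), a type II keratin induced in wounded and stressed stratified epithelium, was at 1.98, 0.923, 1.85 and 1.76 CPM in ASC 1 to 4, against 0.562, 0.140, 0.0969 and 0.0744 CPM in sham 1 to 4. The groups did not overlap, with ASC 2 the lowest of the ASC libraries and sham 1 the highest of the sham libraries. The log2 fold change was 2.79 (SE 0.58), on 17 to 32 reads per ASC library and 1 to 12 per sham library. Of its transcript's 50-base stretches 43.6% also occur in Krt6b, so the split of reads between these genes is uncertain. Krt6b itself had 3.51, 0.652, 1.62 and 2.56 CPM in ASC 1 to 4, against 1.40, 0.187, 0 and 0.0744 CPM in sham 1 to 4. These ranges overlapped, and Krt6b did not pass edgeR's quasi-likelihood test (log2 fold change 2.23, SE 0.98, adjusted p = 0.34).

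Krt15 had a smaller log2 fold change than Krt5, Krt12 and Krt6a, and Krt14 had too few counts to be tested. Krt15 (ENSMUSG00000054146), a type I keratin of basal and limbal cells, had 8.10, 3.91, 4.98 and 10.5 CPM in ASC 1 to 4, against 5.95, 4.95, 3.20 and 4.47 CPM in sham 1 to 4. The groups overlapped, with ASC 2 below 3 of the sham libraries, and the log2 fold change was 0.56 (SE 0.31). Krt14 (ENSMUSG00000045545), the basal partner of Krt5, was close to the limit of detection, with 24, 4, 8 and 4 reads in ASC 1 to 4 and 11, 3, 0 and 1 reads in sham 1 to 4. Its mean of 0.620 ± 0.616 CPM in ASC rested mostly on ASC 1, and that of 0.182 ± 0.229 CPM in sham mostly on sham 1.

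**Figure D1:**
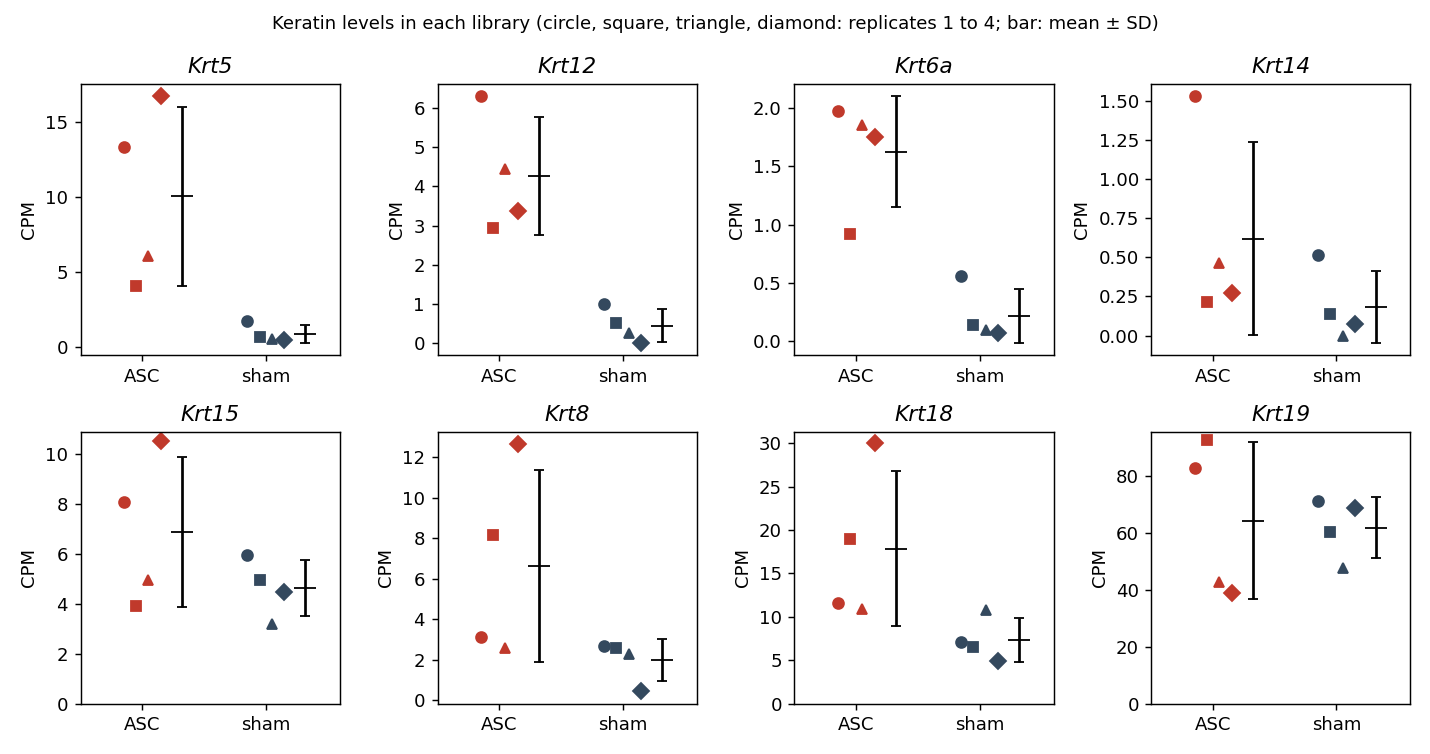
Level of each keratin in CPM, with ASC left of sham in each panel, 1 point per library and a mean ± SD bar over 4 libraries. Krt5, Krt12, Krt6a and Krt18 show no overlap between the groups, and Krt19 lies between 38.9 and 92.8 CPM in ASC and between 47.6 and 71.2 CPM in sham.

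The simple-epithelium pair was higher in some ASC libraries and near sham in the others. Krt18 (ENSMUSG00000023043) was at 11.6, 19.0, 10.9 and 30.0 CPM in ASC 1 to 4, against 7.12, 6.49, 10.8 and 4.91 CPM in sham 1 to 4. The groups touched, since ASC 3 and sham 3 were nearly equal, and ASC 4 was highest. The log2 fold change was 1.27 (SE 0.38). Krt8 (ENSMUSG00000049382), its type II partner, was at 3.12, 8.15, 2.60 and 12.6 CPM in ASC 1 to 4, against 2.67, 2.57, 2.28 and 0.447 CPM in sham 1 to 4. ASC 2 and ASC 4 stood above all other libraries, while ASC 3 lay inside the sham range. The log2 fold change was 1.70 (SE 0.63). Without ASC 4 it was 1.19 for Krt8 and 0.90 for Krt18. The pseudogene Krt8-ps shares 26.9% of the 50-base stretches of the Krt8 transcript and had at most 2 reads in any library.

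Krt19 (ENSMUSG00000020911), a type I keratin of simple and of some stratified epithelia, was at 83.1, 92.8, 42.9 and 38.9 CPM in ASC 1 to 4, against 71.2, 60.4, 47.6 and 68.8 CPM in sham 1 to 4. The groups overlapped on both sides, with ASC 1 and ASC 2 above and ASC 3 and ASC 4 below every sham library. The log2 fold change was 0.057 (SE 0.31; 95% interval -0.67 to 0.78), and its sign depended on the setting, at -0.047 when scaled by library totals. ASC 4, the highest library for Krt18 and Krt8, was the lowest for Krt19.

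**Figure D2:**
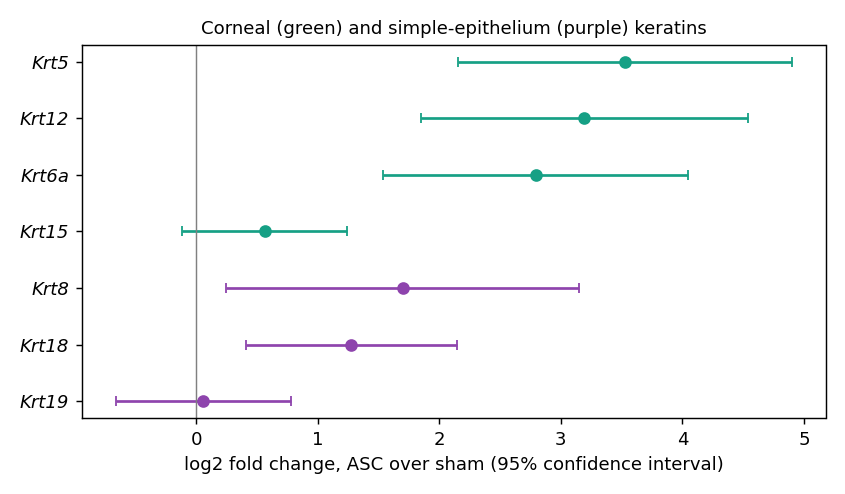
Log2 fold change of ASC over sham for the 7 keratins with enough counts, with 95% confidence intervals from the edgeR fit, corneal keratins in green and simple-epithelium keratins in purple. Krt5, Krt12 and Krt6a lie at 2.79 to 3.52, Krt8 and Krt18 at 1.27 to 1.70, and Krt15 and Krt19 have intervals that include 0.

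Set side by side, the classes moved unequally, and neither moved as a whole. The 5 corneal keratins summed to 23.4 ± 10.1 CPM in ASC and 6.32 ± 2.47 CPM in sham, 3.71-fold by the ratio of means. Krt15 alone made up 4.64 CPM of that sham mean, and 6.88 CPM of the ASC mean. The 3 simple-epithelium keratins summed to 88.9 ± 26.8 CPM in ASC and 71.3 ± 8.50 CPM in sham, 1.25-fold, a sum carried mainly by Krt19. Krt8 and Krt18 alone summed to 24.5 ± 13.6 CPM in ASC and 9.32 ± 3.17 CPM in sham, 2.63-fold. In bulk RNA, a change in the number of cells of a type and a change in RNA per cell cannot be told apart.

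The corneal share of the summed CPM of all 8 genes was 24.2%, 9.10%, 24.0% and 28.6% in ASC 1 to 4, against 10.7%, 8.44%, 6.28% and 6.39% in sham 1 to 4. ASC 2 lay within the sham range, and the other ASC libraries lay above it. The mean log2 ratio of the corneal to the simple sum was 1.58 higher in ASC than in sham (pooled SD 0.70). Without Krt19 in the simple class, and with Krt15 kept in the corneal class, this difference was 0.55. Krt15, with a log2 fold change of 0.56, held most of the corneal sum in sham, and no ratio without it was computed. The ratio of the corneal sum to Krt8 plus Krt18 was 2.12, 0.443, 1.32 and 0.766 in ASC 1 to 4 and 0.995, 0.706, 0.311 and 0.944 in sham 1 to 4, with overlapping ranges.

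**Figure D3:**
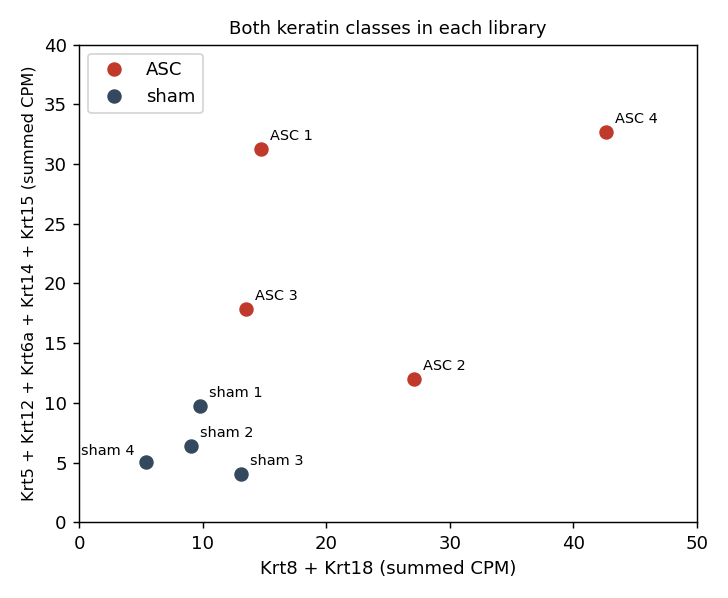
Summed CPM of the 5 corneal keratins against that of Krt8 and Krt18, 1 point per library. ASC 1 is high in the corneal sum, ASC 2 in Krt8 and Krt18, ASC 4 is high in both, and the sham libraries lie at corneal sums of 4.07 to 9.74 CPM.

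The patterns of the members across libraries were compared by a distance, given as a description. The mean absolute difference between gene-centred log2 CPM values was taken over the 8 libraries, where a smaller value means a more similar pattern. It was 0.48 between Krt5 and Krt6a, 0.51 between Krt12 and Krt6a and 0.62 between Krt5 and Krt12. Krt8 and Krt18 differed by 0.51. Between Krt5, Krt12 or Krt6a on one side and Krt8 or Krt18 on the other it was 0.88 to 1.18. Krt15 was at 0.53 from Krt19 and at 1.44 from Krt5 and Krt12. These distances include the difference between ASC and sham on which the members were chosen, so they largely restate the fold changes.

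With the group means removed, a choice made after seeing the data, the distances were 0.30 between Krt5 and Krt6a, 0.44 between Krt12 and Krt6a, 0.62 between Krt5 and Krt12, and 0.51 between Krt8 and Krt18. Those from Krt5, Krt12 or Krt6a to Krt8 or Krt18 were larger on the whole, but the lowest of them, 0.60 between Krt5 and Krt18, was below that between Krt5 and Krt12. Krt15 was then nearer to Krt5 (0.34) than to Krt19 (0.44), the opposite of its place with the group difference included.

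Within ASC, Krt8 and Krt18 were both highest in ASC 4 and next in ASC 2. Krt5 and Krt15 were both higher in ASC 4 and ASC 1 than in ASC 2 and ASC 3. Krt6a had 31, 32 and 26 reads in ASC 1, ASC 3 and ASC 4, too few to order these libraries. In sham, Krt5, Krt12 and Krt6a each had their highest level in sham 1. The ratio of Krt5 to Krt15 was 1.65, 1.03, 1.22 and 1.59 in ASC 1 to 4 and 0.291, 0.132, 0.167 and 0.1 in sham 1 to 4, with no overlap.

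The 5 tested genes outside the members with the pattern nearest to that of Krt18, among 12710 with a mean log2 CPM of at least 1, were Rdh5 (mean absolute difference 0.16 on the log2 scale over 8 libraries), Mfrp (0.17), Otx2 (0.18), Tbc1d1 (0.20) and Stra6 (0.20). Rdh5 is a retinol dehydrogenase of the visual cycle in the retinal pigment epithelium, Otx2 a homeobox factor of that epithelium and of photoreceptors, and Stra6 the cell-surface receptor for retinol-binding protein. Mfrp encodes a membrane protein of the retinal pigment and ciliary epithelia, and Tbc1d1 a Rab GTPase-activating protein. Rdh5 was at 15.8, 23.8, 16.1 and 48.1 CPM in ASC 1 to 4 and 9.32, 9.71, 11.1 and 7.74 CPM in sham 1 to 4, with ASC 4 and ASC 2 highest, as for Krt18. All 5 were nearer to Krt18 than Krt8 was, on a measure that includes the difference between the groups.

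The genes nearest to Krt12 were less close, taken from the same 12710, so that no gene of lower mean level could be chosen. They were Jun (0.59), Ier2 (0.61), Ccn1 (0.68), Nr4a1 (0.69) and Nfkbia (0.69). Jun, Ier2 and Nr4a1 are immediate early genes, Ccn1 a secreted matricellular protein and Nfkbia the inhibitor of NF-kB. Jun was at 327, 211, 243 and 256 CPM in ASC 1 to 4, against 32.2, 27.4, 29.3 and 24.8 CPM in sham 1 to 4. Krt12 itself deviated from its mean by 1.69 on average, mostly through the difference between the groups, and Krt6a (0.51) was nearer to it than any of these. Krt18 deviated from its mean by only 0.60, so distances from Krt12 and from Krt18 are not directly comparable.

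**Figure D4:**
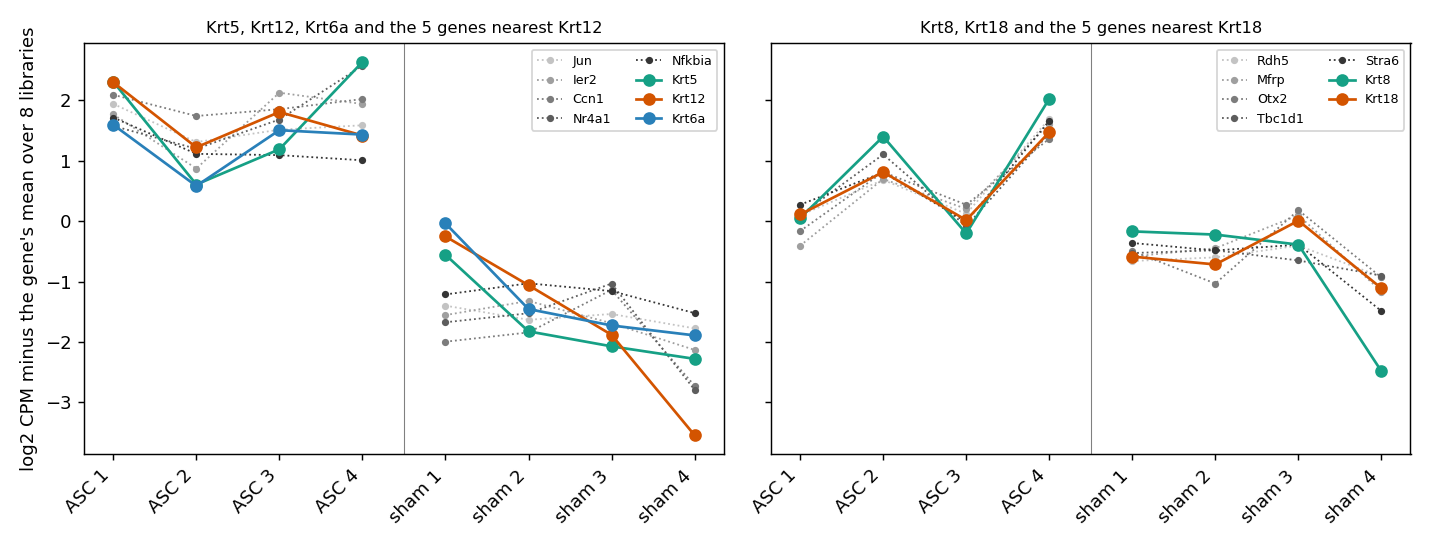
Log2 CPM minus each gene's mean over the 8 libraries, with keratins as solid lines and the 5 nearest genes as dotted grey lines; lines only join values of 1 gene within a group, since libraries have no order. Krt18 and its nearest genes peak in ASC 4 and ASC 2, whereas Krt12 is highest in ASC 1.

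No other keratin passed the test that Krt5, Krt12 and Krt6a passed. The deposited counts held 46 other keratin genes, of which 34 had a count and 10 were tested. None of the 10 passed edgeR's quasi-likelihood test, while 1 had an unadjusted p below 0.05 and 1, Krt13, was called by DESeq2. Their median log2 fold change was -0.011, beside 0.0080 for all genes tested. Krt13, a type I keratin of conjunctiva and other mucosal epithelia, averaged 3.52 ± 1.47 CPM in ASC and 0.772 ± 0.738 CPM in sham (log2 fold change 2.14, SE 0.66, adjusted p = 0.176). Its type II partner Krt4 was at 10.9 ± 2.09 CPM in ASC and 9.61 ± 1.76 CPM in sham (0.18, SE 0.18), and Krt7, a simple-epithelium type II keratin, at 1.93 ± 0.863 CPM in ASC and 2.47 ± 1.13 CPM in sham (-0.37, SE 0.42). Krt16, a wound-induced partner of Krt6a, had 3, 1, 1 and 0 reads in ASC 1 to 4 and none in sham. Krt17, likewise induced on injury, had at most 3 reads per library in ASC and at most 4 in sham. Krt23 had 4 to 12 reads per library in ASC and 0 to 6 in sham, and Krt20 had 0 in ASC and 2 in all of sham.

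Corneal epithelial genes other than keratins did not pass the test. Of 20 listed markers 11 were tested and none was called by edgeR's quasi-likelihood test, 1 had an unadjusted p below 0.05 and DESeq2 called 1, Calml3. Calml3 was also called by edgeR without ASC 2 and without sham 1, and together with the connexin Gjb6 when no low-count filter was used. Their median log2 fold change was 0.29, beside 0.0080 for all genes. Calml3, a calmodulin-like protein of stratified epithelium, averaged 3.90 ± 1.10 CPM in ASC and 0.984 ± 0.791 CPM in sham (log2 fold change 1.95, SE 0.46, adjusted p = 0.071) and did not overlap. The most abundant were Aldh3a1, a corneal aldehyde dehydrogenase, at 592 CPM in ASC and 483 CPM in sham, and the plakin Ppl at 187 CPM in ASC and 218 CPM in sham. Slurp1, a secreted protein of corneal epithelium with too few counts to be tested, had 16, 8, 15 and 10 reads in ASC 1 to 4 and 7, 6, 0 and 0 in sham 1 to 4. Ly6d and Lypd3 had no read in sham and at most 0.116 CPM in any ASC library.

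The summed level of these 20 markers was 753 to 1300 CPM in ASC and 763 to 1081 CPM in sham, and the means did not differ beyond the spread (two-sided exact permutation p = 0.543, adjusted p = 0.543 over 2 such tests). Aldh3a1 held 56.2% of the sum in ASC and 52.4% in sham. Without it, a choice made after seeing the data, the difference, ASC minus sham, was -4.29 CPM (exact permutation p = 0.943). Both sums were set by abundant genes such as Ppl, and low-count markers such as Calml3 (3.90 CPM in ASC and 0.984 CPM in sham) hardly entered them. The sums also did not depend on a detectable level of Krt12. Sham 4 had no Krt12 read, yet its summed level of the 20 markers lay inside the sham range of 763 to 1081 CPM. Which cells of the capsule samples carried the abundant markers was not tested. These tests therefore cannot show whether the low-count markers, or the amount of corneal epithelium, changed.

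The proteins that anchor keratin filaments at desmosomes and hemidesmosomes were compared next. Of 13 tested desmosome and junction genes 1 was called higher and none lower, against 0.631% and 0.391% of all tested genes. An unadjusted edgeR p below 0.05 was found for 3, and the median log2 fold change was 0.15. All gene lists were chosen with earlier results of these data known. The called gene was Dsp, desmoplakin, which ties keratin filaments to the desmosome. Its level was 2.55, 1.03, 1.27 and 2.43 CPM in ASC 1 to 4, against 0.140, 0.374, 0.242 and 0.298 CPM in sham 1 to 4, with no overlap (log2 fold change 2.76, SE 0.48, edgeR adjusted p = 0.0197). On 19 to 40 reads per ASC library and 3 to 8 per sham library, Dsp lost its call without ASC 1, ASC 4 or any 1 sham library (adjusted p 0.0514 to 0.0653). The other genes with an unadjusted p below 0.05 were the plakophilin Pkp1 (log2 fold change 1.51, SE 0.63, edgeR adjusted p = 0.293) and the desmosomal cadherin Dsg2 (0.65, SE 0.27, edgeR adjusted p = 0.299). Pkp3, another plakophilin, had too few counts to be tested, at 0.482 CPM in ASC and 0.0783 CPM in sham with no overlap. The abundant cadherin Cdh1 (0.029) and the plakoglobin Jup (0.11) did not pass. None of 8 tested hemidesmosome genes was called by edgeR or DESeq2 (0 at an unadjusted p below 0.05), with the abundant Itga6 at 408 CPM in ASC and 418 CPM in sham and Dst at 325 CPM in each.

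Among transcription factors that act on epithelial keratin genes 8 of 15 were tested, and 1 was called higher, against 0.631% of all tested genes. Klf4, a Krüppel-like factor needed for corneal epithelial differentiation in the mouse and also an early response gene in many cells, was at 28.4, 21.7, 25.6 and 25.2 CPM in ASC 1 to 4, against 7.54, 6.02, 7.70 and 6.03 CPM in sham 1 to 4. The groups were far apart relative to their spread (log2 fold change 1.88, SE 0.13, edgeR adjusted p = 2.63e-05), and Klf4 kept its call without each library in turn. Klf5, its relative in basal epithelium, had too few counts, and Trp63, the master factor of stratified epithelia, averaged 0.264 CPM in ASC and 0.333 CPM in sham. Pax6 (-0.15) and Tfap2a (-0.14) did not pass, and DESeq2 added Klf6 to the calls.

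Intermediate filament genes of lens and other cells gave no call by edgeR among 11 tested (2 at an unadjusted p below 0.05; DESeq2 called 1, Bfsp1, as did edgeR without ASC 2, and without a low-count filter edgeR called Lmnb2 lower). Vim had a log2 fold change of 0.16 (SE 0.15), and Bfsp1 one of 1.54 (SE 0.44, adjusted p = 0.172).

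**Figure D5:**
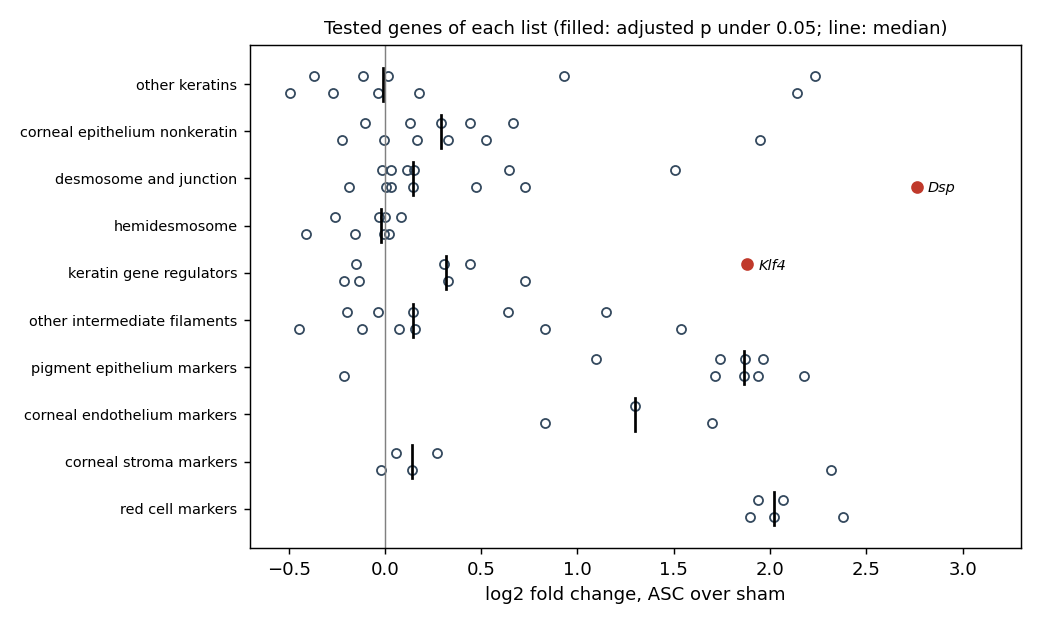
Log2 fold change of ASC over sham for the tested genes of 10 lists, with filled points for an edgeR adjusted p below 0.05 and a black line at each list's median. Dsp and Klf4 are the called genes, at 2.76 and 1.88, and the pigment epithelium and red cell lists have medians of 1.86 and 2.02.

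Markers of other tissues of the eye were compared between the same libraries. Of 10 pigment epithelium markers 9 were tested and none was called by edgeR. An unadjusted edgeR p below 0.05 was found for 7, and DESeq2 called 4 higher, against 2.12% of all genes it called higher. The share of all tested genes at an unadjusted p below 0.05 was not computed, for this or any other list. The log2 fold change was positive for 8, with a median of 1.86. The summed level of the 10 markers was 239, 436, 578 and 806 CPM in ASC 1 to 4 and 197, 200.1, 310 and 106 CPM in sham 1 to 4 (exact permutation p = 0.0571, adjusted p = 0.114 over 2 tests). As the list was chosen with earlier results of these data known, this p-value is only a description. In ASC the most abundant were the melanin enzyme Dct, at 171 CPM in ASC and 51.0 CPM in sham, and the melanosome matrix protein Pmel, at 86.8 CPM in ASC and 19.0 CPM in sham. Oca2, a melanosome transporter, was the most abundant in sham and the only tested marker with a negative log2 fold change, at 56.8 CPM in ASC and 65.7 CPM in sham (-0.21, SE 0.24). No marker of the list was at 0, the visual-cycle isomerase Rpe65 averaging 36.0 CPM in ASC and 10.8 CPM in sham, and Slc45a2, a melanosome transporter, having an adjusted p of 0.064. ASC 4 was highest and sham 4 lowest both in this sum and in Krt8 plus Krt18, whereas ASC 3 was second highest in the pigment sum and lowest of the ASC libraries in Krt8 plus Krt18. Sham 3 was the highest sham library in both sums. The part of pigment epithelium in the levels of Krt8 and Krt18 was not tested.

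Of 5 red cell genes all were tested and none was called by edgeR. All 5 had an unadjusted edgeR p below 0.05, and DESeq2 called 4 higher, against 2.12% of all genes it called higher. Their summed levels were 73.9 to 370.1 CPM in ASC and 40.1 to 62.8 CPM in sham. The globins Hbb-bs (102 CPM in ASC and 24.3 CPM in sham) and Hba-a1 (91.5 CPM in ASC and 23.8 CPM in sham) were the most abundant, with reads shared among near-identical globin copies. The 3 corneal endothelium markers gave no call by edgeR (1 at an unadjusted p below 0.05, Col8a1, also called by DESeq2) and summed to 30.3 to 99.2 CPM in ASC and 22.5 to 33.9 CPM in sham, with the collagens Col8a2 at 37.8 CPM in ASC and 21.2 CPM in sham and Col8a1 at 19.4 CPM in ASC and 5.87 CPM in sham. Of 8 corneal stroma markers 5 were tested and none was called by edgeR or DESeq2 (1 at an unadjusted p below 0.05, Dcn). They summed to 361 to 500 CPM in ASC and 324 to 417 CPM in sham, most of it Ogn (330 CPM in ASC and 300 CPM in sham) and next Col1a2 (45.3 CPM in ASC and 43.6 CPM in sham). Dcn did not overlap and averaged 13.8 CPM in ASC and 2.72 CPM in sham (log2 fold change 2.31, SE 0.75, edgeR adjusted p = 0.235). ASC 3 was its highest library, at 31.2 CPM. Of the 5 tested stroma markers 4 had a positive log2 fold change. The keratocyte proteoglycan Kera had no read in sham and at most 0.231 CPM in ASC. Of 8 conjunctiva markers, Krt4, Krt7 and Krt13 among them, 4 were tested and none was called by edgeR (1 at an unadjusted p below 0.05, Krt13, also called by DESeq2). The mucin Muc4 was at 4.31 CPM in ASC and 0.806 CPM in sham, and the goblet cell peptide Tff1 was at 0 in all libraries. The part of these tissues in the keratin levels was not tested.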

How the data were processed

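Poly-A RNA from 8 mouse lens capsule samples, 4 ASC and 4 sham, was sequenced. The authors deposited 1 table of raw read counts per gene. CASAVA, fastp, HISAT2 2.0.5 and featureCounts 1.5.0-p3 are named in the submitters' processing notes. The genome build, the annotation, the strand setting and the handling of multiply matching reads are not stated there or in the labels. Symbols were matched for 54409 of 54532 identifiers. Exon lengths, overlaps and 50-base matches came from GENCODE mouse release 21, and promoters from RefSeq GRCm38.p6.

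The keratins and all gene lists were chosen with earlier results of these data known. Counts were filtered with filterByExpr (15857 genes), scaled by TMM and tested with the robust quasi-likelihood test of edgeR 4.0.16 in R 4.3.3, ASC against sham, with Benjamini-Hochberg adjustment over all genes and a threshold of 0.05. The fit was tested on simulated counts. CPM used TMM-scaled library sizes, log2 CPM a prior count of 2, and SE is the log2 fold change over the root of the F statistic. Library totals of 14420494 to 21141582 counts set the precision, and counts of reads are not counts of molecules. Summed marker levels were compared with exact permutation tests over 70 assignments (smallest p 0.0286). Because of how the lists were chosen, the p-values of these sums under any setting are only a description.

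Genes named in the text were the 8 keratins, other called keratins and a fixed set of 8 more, up to 4 called genes of each list or its most abundant ones, and the 5 genes nearest in pattern to Krt12 and Krt18. Other genes named (Calml3, Slurp1, Gjb6, Lmnb2, Pkp1, Pkp3, Dsg2, Cldn4, Hba-a2, Hbb-bt, Alas2, Oca2, Slc45a2, Rpe65, Col8a1, Dcn, Kera, Ly6d, Lypd3, Trp63, Klf5, Klf6, Pax6, Tfap2a, Tff1, Cdh1, Jup, Bfsp1, Cryaa and Foxe3) were chosen after their values were seen. Alternatives were DESeq2 1.42.0, each library left out in turn, blocking on the replicate number, 2 other filters on low counts and 2 other scalings. No pair of replicates of a group agreed within sampling noise (chi-square per gene at least 23.6). The samples are described as biological replicates, but p-values measure only the spread between these libraries.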

Additional observations from a re-analysis of the deposited data

Results flagged for a closer look

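Sham 1 was flagged by an outlier rule for 2 of the keratins. Krt5 was at 1.732 CPM in sham 1, against 0.4466 to 0.6538 CPM in the other sham libraries, and Krt6a at 0.5617 CPM, against 0.07443 to 0.1401 CPM. In each case the gap to the nearest library, 0.839 and 0.865 of the group's range, was above Dixon's 95% critical value for 4 samples, which chance exceeds in about 1 of 20 groups. The rule was applied in ASC and in sham to all 8 keratins, both keratin class sums, the 2 marker sums and the corneal to simple ratio. With that many groups searched, chance alone could give such flags. Without sham 1 the log2 fold change of Krt5 was 4.16 and that of Krt6a 3.83.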

How the results depend on the processing

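The log2 fold changes of Krt5, Krt12, Krt6a, Krt15, Krt8 and Krt18 stayed positive under all alternatives run for each. Krt19 changed sign under 5 of 14: -0.047 when scaled by library totals, -0.023 with the replicate block, and -0.18 to 0.23 with 1 library left out (negative without ASC 1, ASC 2 or sham 3). All genes called numbered 162 (100 higher, 62 lower), 593 with DESeq2, 712 without a filter, 145 (75 higher, 70 lower) when scaled by library totals, where all tested genes had a median change of -0.116 (log2), beside 0.0080 with TMM, and 56 to 228 with 1 library left out. Keratins of the 8 called numbered 3, and 5 with DESeq2, 2 with the filter of 1 CPM in 4 libraries, where Krt6a was not tested, and 0 to 3 with 1 library left out. Other keratins called numbered 0, and 1 (Krt13) with DESeq2 and without a filter. Of the marker lists with no call, edgeR called Slc45a2 without a filter, without ASC 1 and without ASC 2, and Hbb-bt and Alas2 without a filter and without ASC 3. Klf6 was called without a filter and without ASC 4, and Cldn4 without a filter. The summed corneal epithelial markers differed by 104.7 CPM, 11.7 to 194 CPM with 1 library left out, and by -4.29 CPM without Aldh3a1. The summed pigment markers differed by 311 CPM, and by 214 to 403 CPM with 1 library left out, where the exact permutation p without ASC 1 was 0.0286, the smallest possible. The log2 corneal to simple ratio differed by 1.58, by 0.55 without Krt19, by 1.43 per kilobase, and by 1.36 to 2.02 with 1 library left out. The replicate block gave 169 called genes (130 higher, 39 lower) and the same 3 keratins, and it called Calml3, Bfsp1, Dcn and Hba-a2 higher, which had no call without it; same-numbered samples correlated above 0.1 in 2 of 4 pairs, so the numbers are not taken to pair the samples. Exact paired sign-flip permutation tests of the 2 marker sums gave p = 0.625 for corneal and 0.125, the smallest possible, for pigment markers. Depth limits Krt14, Krt6a and sham Krt12 most, with single-digit reads in several libraries.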
